A study of Mus musculus with 16 samples.

Results

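The MYC network was examined in mouse p53-/-; Myc hepatoblasts, a liver cancer cell line treated with sorafenib or with its solvent, DMSO. Its members were 10 genes taken by name from the 40840 genes of the count table, namely the MYC family genes Myc, Mycn and Mycl, their shared partner Max, the antagonists Mxd1, Mxd3, Mxd4, Mxi1 and Mnt, and the MAX-like gene Mlx. All 10 were in the table and all 10 passed the filter of at least 10 counts in total, which left 20444 genes to be tested. The 4 groups, each of 4 libraries, were DMSO for 48 hours, sorafenib for 48 hours, DMSO for 7 days and sorafenib for 7 days. Sorafenib, a drug that inhibits several kinases and is given for hepatocellular carcinoma, was used at 8.5 µM. Cells of every group, the controls included, had lost p53 and overexpressed Myc, and no library came from cells without these changes. All libraries came from 1 cell line, and the species and promoter of its Myc transgene are not given in the sources used here. A gene count adds transcripts of the transgene that match the mouse gene to those of the cells' own Myc gene, and the pair cannot be told apart.

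MYC, MYCN and MYCL are transcription factors that bind DNA as pairs with MAX, preferably at the letters CACGTG, called an E-box, and raise the transcription of genes for growth, ribosome production and metabolism. MXD1, MXD3, MXD4, MXI1 and MNT also pair with MAX at E-boxes, but bring SIN3 corepressors and histone deacetylases and lower transcription there. MLX is a second hub that pairs with some MXD proteins, with MNT, and with the glucose-sensing factors encoded by Mlxip and Mlxipl. In liver, gain of MYC is a common feature of hepatocellular carcinoma.

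The libraries held 16586254 to 30828427 counts, with a median of 26360677. In 1 library, sorafenib at 48 hours replicate 2, genes from a place on chromosome 14 onward in genome order had 0.605 times the counts of the genes before it, relative to the other 3 replicates. Myc on chromosome 15 and Mxi1 on chromosome 19 lie in that stretch, so the results that rest on them are given with and without this library. DMSO at 7 days replicate 4 stood apart from its group in another way. Its counts differed from those of the other 3 replicates by a mean of 53.1 to 71.6 chi-square units per gene, of which 10 genes, AY036118, Lars2 and mt-Rnr2 among them, held 93.6 to 95.8%, while the median gene differed by 1.17 to 1.29. Without this library no member's call changed in any comparison. Libraries of DMSO at 48 hours differed in a like way, replicate 2 from replicate 1 by a mean of 42.7 units and from replicate 4 by 39.2. In these pairs 10 genes held 93% and 87% of the sum, AY036118, Lars2 and mt-Rnr2 again among them, and the median gene differed by 1.02 and 1.4. The deleted gene, Trp53, still had 1268 to 4799 raw counts in every library, and which part of it is lost is not given in the sources used here. Of the markers that define hepatoblasts, Hnf4a had 0 counts in all libraries, Alb at most 1 and Afp at most 14, whereas Dlk1 had 3488 to 38122 and Krt19 865 to 3013. Of the fibroblast and stellate markers, Col1a1 had 39863 to 81817 raw counts, but Col1a2, the gene of its partner chain, had 48 to 334, Pdgfrb 434 to 2011 and Des 12 to 114. The leukocyte gene Ptprc had at most 4 and the macrophage gene Adgre1 had 0, and the part of these markers in the results was not tested. Values below are normalized counts, that is counts scaled to the libraries' effective sizes, as mean ± SD with n = 4 per group. Such values are relative to the library, and a change in cell makeup and a change in RNA per cell cannot be told apart. The labels do not say that replicates came from separate cultures, so p-values measure only the spread between these samples.

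The stretches of DNA before the members' start sites were read from the GRCm39 genome to see which hold the E-box that the network itself binds. In the 250 bases before the annotated start of the main transcript, CACGTG, which reads the same on both strands, was found once each in Max, Mxd3, Mxd4 and Mlx. It was not found in these windows of Myc, Mycn, Mycl, Mxd1, Mxi1 and Mnt. Of 19282 protein-coding promoters of the same length, 1281, or 6.64%, held it. The windows of Mxi1 (chr19:53317594-53317843), Mycn and Mxd3 lie inside the annotated genes. Stretches before other start sites of a gene, and bases after the start, were not searched. The 4 windows with the motif and that of Mycn, the member with the largest response, are shown 5′ to 3′ in the direction of the gene, with CACGTG in capitals. They lie at chr12:77009001-77009250 on the minus strand for Max, chr13:55477605-55477854 minus for Mxd3, chr5:34345241-34345490 minus for Mxd4, chr11:100977842-100978091 plus for Mlx and chr12:12991916-12992165 minus for Mycn. Counted from the start site, the motif begins at -25 in Max, -223 in Mxd3, -33 in Mxd4 and -16 in Mlx.
Max: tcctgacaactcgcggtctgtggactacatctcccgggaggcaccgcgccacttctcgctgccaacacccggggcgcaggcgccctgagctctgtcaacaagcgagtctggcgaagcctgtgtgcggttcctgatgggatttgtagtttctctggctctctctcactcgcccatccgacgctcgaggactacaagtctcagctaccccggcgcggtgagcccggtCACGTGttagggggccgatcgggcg
Mxd3: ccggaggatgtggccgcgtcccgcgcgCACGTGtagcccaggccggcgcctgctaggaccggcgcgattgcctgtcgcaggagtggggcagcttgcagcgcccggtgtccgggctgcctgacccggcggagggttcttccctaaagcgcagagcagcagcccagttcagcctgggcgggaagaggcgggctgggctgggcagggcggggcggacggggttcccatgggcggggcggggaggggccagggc
Mxd4: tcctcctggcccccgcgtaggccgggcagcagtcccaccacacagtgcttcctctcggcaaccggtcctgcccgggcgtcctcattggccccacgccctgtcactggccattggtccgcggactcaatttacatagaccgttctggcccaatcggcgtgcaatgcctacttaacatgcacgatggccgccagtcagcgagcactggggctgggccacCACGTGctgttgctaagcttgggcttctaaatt
Mlx: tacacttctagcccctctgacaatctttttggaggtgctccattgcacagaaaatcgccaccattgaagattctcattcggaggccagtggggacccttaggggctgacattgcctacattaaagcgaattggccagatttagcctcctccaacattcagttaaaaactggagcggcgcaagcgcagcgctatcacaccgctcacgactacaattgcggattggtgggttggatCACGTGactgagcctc
Mycn: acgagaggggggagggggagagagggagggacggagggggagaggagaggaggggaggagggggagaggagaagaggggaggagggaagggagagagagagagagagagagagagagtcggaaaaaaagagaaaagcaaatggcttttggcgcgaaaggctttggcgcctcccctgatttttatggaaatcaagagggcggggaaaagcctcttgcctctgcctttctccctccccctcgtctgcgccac

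At 48 hours of sorafenib, 9 of the 10 members differed from DMSO. Mycn, Mycl and Mlx were higher, Myc and all 5 antagonist genes were lower, and Max did not pass the test. Among all genes tested, 26.9% were higher and 27.7% were lower in this comparison, so a call alone is common here, and 6 of 10 lower against 3 of 10 higher is the members' split (edgeR quasi-likelihood test, false discovery rate under 0.05). The median log2 fold change of the members was -0.55, beside -0.05 for all tested genes. In 9 members the 4 sorafenib libraries did not overlap the 4 DMSO libraries, beside 48.0% of all genes. At 7 days, 1 member was higher, Mycl, 8 were lower and Mlx did not pass, beside 28.9% of all genes higher and 27.9% lower. The members' median log2 fold change was then -0.28, beside 0.02 for all genes, and the groups of 9 members did not overlap, beside 56.8% of all genes. Without sorafenib 48 h replicate 2, the counts of members called in each direction at both times were the same.

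**Figure D1:**
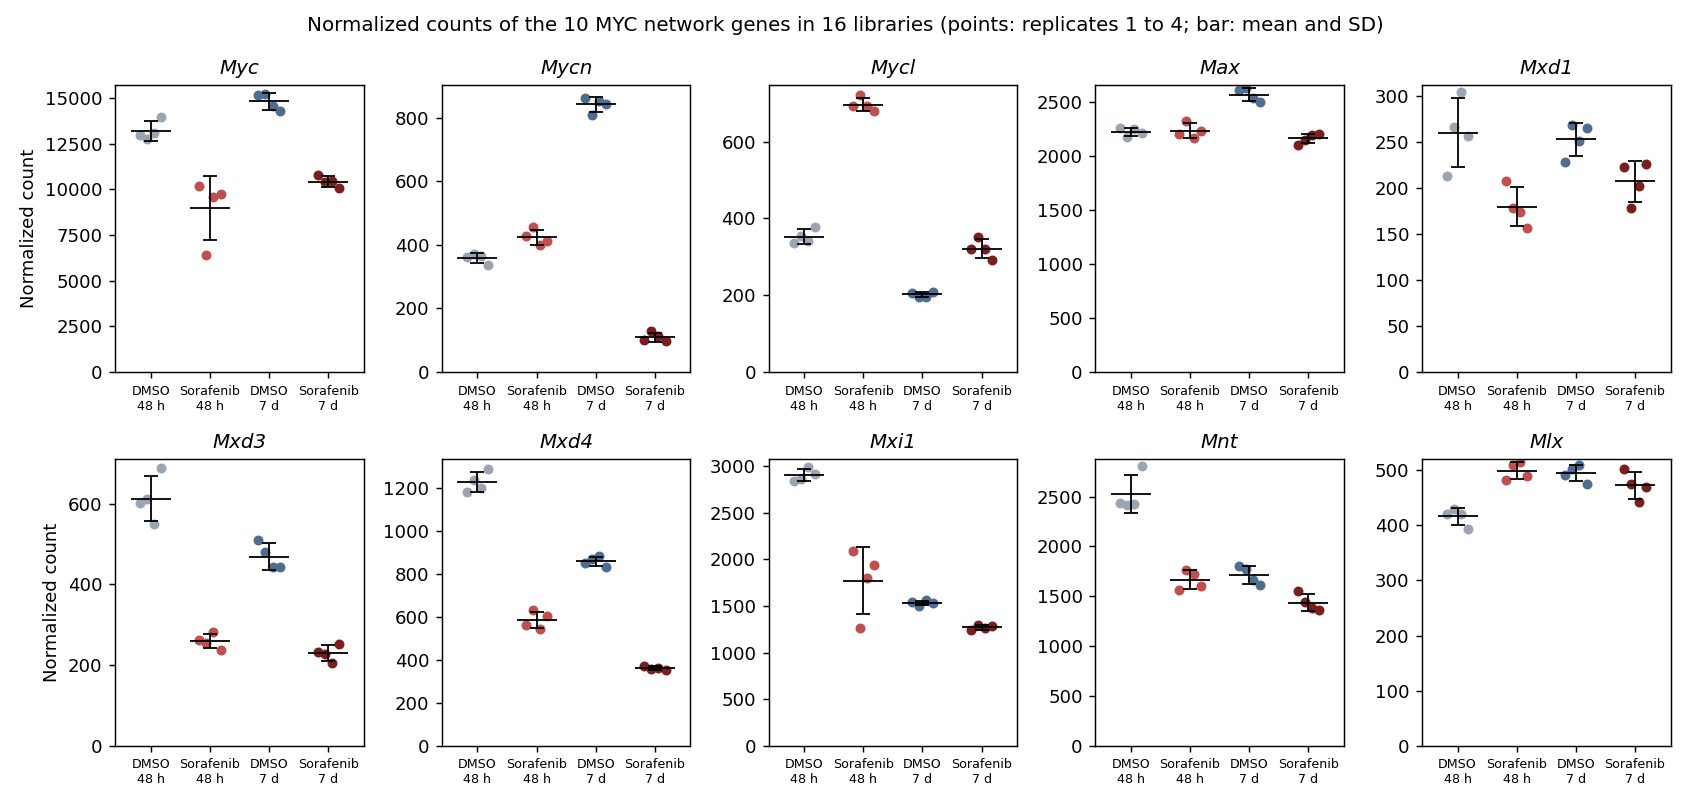
Normalized counts (vertical axes, starting at 0) of the 10 genes in the 4 groups, with a point for each library and a bar for the mean and SD. Mycn fell to 97.4 to 129 normalized counts in sorafenib at 7 days, Mycl was higher in sorafenib at both times, and 1 sorafenib library of Myc and Mxi1 at 48 hours lay below the other 3.

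Myc (chr15:61857227-61862223, plus strand, GRCm39), the oncogene that this line overexpresses, was lower in sorafenib at both times. At 48 hours its normalized counts were 13003, 12748, 13085 and 13970.3 in the 4 DMSO libraries and 10188, 6390.3, 9564 and 9754 in the sorafenib libraries. At 7 days they were 15156, 15245, 14587 and 14301 in DMSO and 10769, 10416, 10448 and 10071 in sorafenib. Every sorafenib library lay below every DMSO library of its time point, and replicate 2 of sorafenib at 48 hours lay far below the other 3. The mean fell from 13202 ± 532 to 8974 ± 1740 at 48 hours, a log2 fold change of -0.56 (SE 0.0907; edgeR, adjusted p = 2.57e-05). It fell from 14822 ± 453 to 10426 ± 285 at 7 days, a log2 fold change of -0.51 (SE 0.0904; edgeR, adjusted p = 6.8e-05). Without the library with lowered counts, the 48-hour value was -0.43 (edgeR, adjusted p = 1.48e-17), and an offset for its lowered stretch gave -0.43 too. The drug response did not pass a test of difference between the times (difference 0.05 on the log2 scale, 95% interval -0.202 to 0.299, edgeR, adjusted p = 0.815), and without that library the difference was -0.08 (adjusted p = 0.0975).

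Mycn (chr12:12986076-12992915, minus strand), a MYC relative best known from the embryo and from neuroblastoma, gave the largest response of the network and the only one called as a rise at 48 hours and as a fall at 7 days. At 48 hours it had 363, 370.4, 364.5 and 335 normalized counts in DMSO and 426.5, 455, 401 and 411 in sorafenib. At 7 days it had 861, 809.5, 853 and 844 in DMSO and 101, 129, 112 and 97.4 in sorafenib. The sorafenib libraries were all above DMSO at 48 hours and all far below DMSO at 7 days. Means were 358 ± 15.6 and 423 ± 23.7 at 48 hours, a log2 fold change of 0.24 (SE 0.0646; edgeR, adjusted p = 0.00403). At 7 days they were 842 ± 22.6 and 109.9 ± 14.2, a fall of 86.8% or a log2 fold change of -2.92 (SE 0.0702; edgeR, adjusted p = 7.01e-18). The responses differed by -3.16 on the log2 scale (SE 0.0965; edgeR, adjusted p = 3.3e-15). This difference has parts in both treatments, since Mycn rose by 1.23 on the log2 scale from 48 hours to 7 days in DMSO and fell by 1.93 in sorafenib (edgeR, adjusted p = 1.46e-12 and 9e-14).

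Mycl (chr4:122889408-122896282, plus strand), another MYC family member, was the only member that was higher in sorafenib at both times. It had 335, 354, 341 and 378.5 normalized counts in DMSO and 692, 721, 693 and 679 in sorafenib at 48 hours. Its 7-day values were 206.5, 196, 196 and 209.6 in DMSO and 319.5, 352, 321 and 291 in sorafenib. The groups were apart at both times, and every 7-day library lay below every 48-hour library of the same treatment. The log2 fold change was 0.98 at 48 hours (SE 0.0569; means 352 ± 19.2 and 696 ± 17.8; edgeR, adjusted p = 8.62e-12). It was 0.67 at 7 days (SE 0.0637; means 202 ± 7.05 and 321 ± 24.7; edgeR, adjusted p = 1.62e-08), and the response was smaller at 7 days by 0.31 (difference -0.31, SE 0.0857; edgeR, adjusted p = 0.00724).

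**Figure D2:**
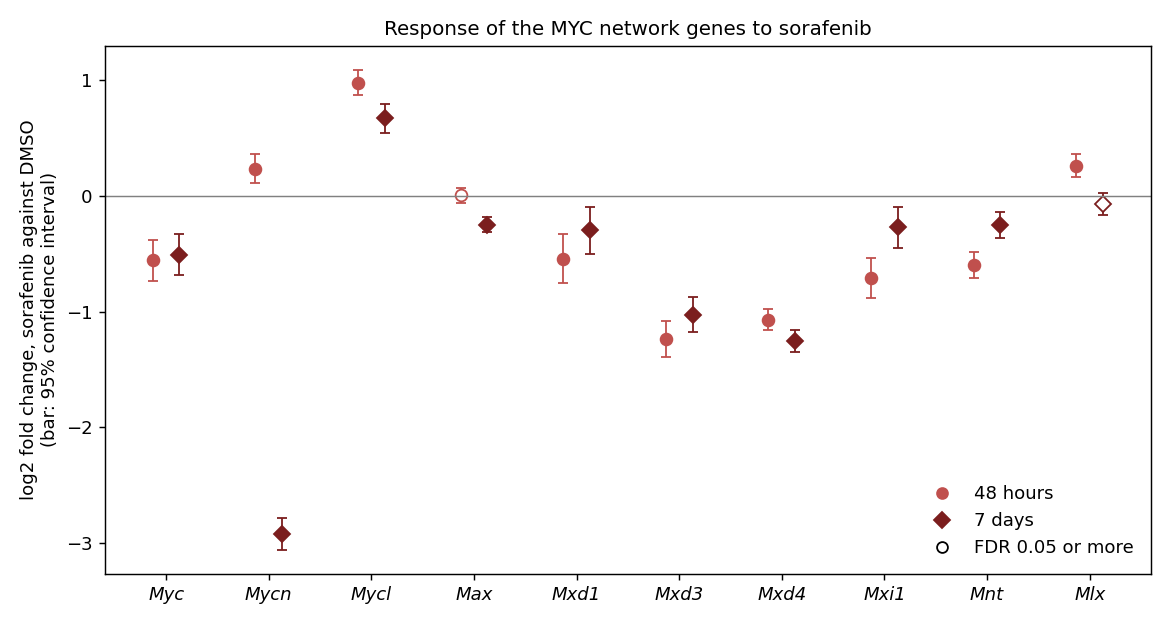
Log2 fold change of sorafenib against DMSO (vertical axis) for each member at 48 hours (circles) and 7 days (diamonds), with 95% confidence intervals from the edgeR fit and open symbols for a false discovery rate of 0.05 or more. Mycn at 7 days stands at -2.92, Mycl is above 0 at both times, and the 5 antagonist genes are below 0 at both times.

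Max (chr12:76984043-77009009, minus strand), the partner that MYC proteins and their antagonists share, moved less than most members. At 48 hours it had 2266, 2179, 2251 and 2215 normalized counts in DMSO and 2206, 2332, 2172 and 2235 in sorafenib. The 7-day libraries held 2612, 2636, 2537 and 2503 in DMSO and 2109, 2148, 2197 and 2208 in sorafenib. The ranges overlapped at 48 hours and were apart at 7 days. The 48-hour log2 fold change was 0.005 (95% interval -0.0593 to 0.0689; edgeR, adjusted p = 0.917), and its sign turned under other scalings. At 7 days Max fell from 2572 ± 62.3 to 2166 ± 45.9, by 0.25 on the log2 scale (SE 0.0323; edgeR, adjusted p = 1.45e-06). The responses differed by -0.25 (SE 0.046; edgeR, adjusted p = 0.000181).

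All 5 antagonist genes were lower in sorafenib at both times, in every setting run, and Mxd3 and Mxd4 had the largest fold changes among them. Mxd3 (chr13:55472981-55477908, minus strand), an MXD gene known for its expression in dividing cells, had 600.2, 612, 550.3 and 687 normalized counts in DMSO and 262, 256, 281 and 237 in sorafenib at 48 hours. Its 7-day values were 509, 481, 442 and 442 in DMSO and 233, 228, 205.5 and 253 in sorafenib. No sorafenib library reached the range of its DMSO group at either time. Its log2 fold change was -1.24 at 48 hours (SE 0.0791; edgeR, adjusted p = 3.76e-11) and -1.03 at 7 days (SE 0.0791; edgeR, adjusted p = 6.6e-10), and the difference of 0.21 did not pass (95% interval -0.00951 to 0.432; edgeR, adjusted p = 0.159). Of the 2760 exon bases of Mxd3, 876 overlap exons of Prelid1 on the opposite strand. The strand setting of the counting is not given in the sources used here, and Prelid1 was lower too, with log2 fold changes of -0.56 and -0.35 at the 2 times. Its part in the Mxd3 values was not tested.

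Mxd4 (chr5:34331227-34345240, minus strand), an MXD gene linked to differentiation, had 1181, 1241, 1203 and 1291 normalized counts in DMSO and 563, 632, 546 and 604 in sorafenib at 48 hours. At 7 days it had 852, 869.5, 883 and 835 in DMSO and 373, 357, 362 and 352 in sorafenib. Each sorafenib library was below each DMSO library of its time, and the 4 sorafenib libraries at 7 days were the lowest of all 16. The log2 fold change was -1.07 at 48 hours (SE 0.0474; edgeR, adjusted p = 1.1e-13) and -1.25 at 7 days (SE 0.0494; edgeR, adjusted p = 1.68e-14). The difference between these responses, -0.18, had an adjusted p of 0.0456 in edgeR and did not pass in 17 of 22 other settings or left-out libraries.

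Mxi1 (chr19:53298852-53364241, plus strand), an antagonist with several isoforms, had 2846, 2861, 2994 and 2916 normalized counts in DMSO and 2095, 1266, 1796 and 1937.5 in sorafenib at 48 hours. The 7-day libraries held 1543, 1503, 1561.5 and 1532 in DMSO and 1242, 1299, 1265 and 1281 in sorafenib. Groups of the same time did not overlap, and the lowest 48-hour value belongs to the library with lowered counts. The log2 fold change was -0.71 at 48 hours (SE 0.0892; edgeR, adjusted p = 9.58e-07), or -0.59 without that library (adjusted p = 4.23e-20). It was -0.27 at 7 days (SE 0.0911; edgeR, adjusted p = 0.0158). The response was smaller at 7 days by 0.44 on the log2 scale (edgeR, adjusted p = 0.0102), or by 0.32 without that library (adjusted p = 5.83e-07).

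Mnt (chr11:74721338-74736836, plus strand), the antagonist known to be made in most cells, had 2437, 2417, 2425 and 2807.5 normalized counts in DMSO and 1564.5, 1768, 1725 and 1607 in sorafenib at 48 hours. Its values at 7 days were 1806, 1771, 1667 and 1608 in DMSO and 1554.5, 1441, 1383 and 1365 in sorafenib. The groups were apart at both times, by a narrow margin at 7 days, and replicate 4 of DMSO at 48 hours stood above its group. The log2 fold change was -0.60 at 48 hours (SE 0.0571; edgeR, adjusted p = 1.83e-08) and -0.26 at 7 days (SE 0.0574; edgeR, adjusted p = 0.000757). The response was smaller at 7 days by 0.34 (SE 0.0809; edgeR, adjusted p = 0.00207).

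Mxd1 (chr6:86624024-86646218, minus strand), an antagonist known to rise in differentiating cells, was the lowest of the antagonists per length. It had 213, 265.5, 304 and 256 normalized counts in DMSO and 208, 178, 174 and 157 in sorafenib at 48 hours. At 7 days it had 228, 268, 250.3 and 264 in DMSO and 223, 178, 202 and 226 in sorafenib. The groups of a time point came close to each other without overlap. The log2 fold change was -0.54 at 48 hours (SE 0.109; edgeR, adjusted p = 0.000271) and -0.30 at 7 days (SE 0.103; edgeR, adjusted p = 0.0193). The 7-day call rested on single libraries, since the adjusted p was 0.0568 without DMSO replicate 2 and 0.0855 without sorafenib replicate 2. The difference between times, 0.24, did not pass (95% interval -0.0508 to 0.54; edgeR, adjusted p = 0.229).

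Mlx (chr11:100978080-100983043, plus strand), the second hub, rose with sorafenib at 48 hours and did not pass at 7 days. It had 420.3, 430.3, 421 and 394 normalized counts in DMSO and 483, 509.6, 515 and 489.5 in sorafenib at 48 hours. At 7 days it had 491, 502, 510.2 and 476 in DMSO and 503, 474, 443 and 470.2 in sorafenib. The groups were apart at 48 hours and overlapped at 7 days. The log2 fold change was 0.26 at 48 hours (SE 0.051; edgeR, adjusted p = 0.000175) and -0.07 at 7 days (95% interval -0.165 to 0.0273; edgeR, adjusted p = 0.248), and the responses differed by -0.33 (edgeR, adjusted p = 0.000846). Of its 2137 exon bases, 1109 overlap Psmc3ip on the opposite strand, whose log2 fold changes were 0.16 and -0.05, and the part of that overlap was not tested.

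In exact two-sided permutation tests of the normalized counts, every member other than Max at 48 hours (p = 0.886) and Mlx at 7 days (p = 0.171) gave 0.0286, the smallest value that 4 libraries against 4 can give. Across the network, the drug response differed between the times for 7 members, higher (a smaller fall) at 7 days for Mxi1 and Mnt and lower for Mycn, Mycl, Max, Mxd4 and Mlx. Among all genes, 15.5% had a higher and 21.3% a lower response at 7 days. The 2 drug comparisons use separate control groups.

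Time in culture moved the members in the control cells too. In DMSO, 3 members were higher at 7 days than at 48 hours, namely Mycn, Max and Mlx, and 5 were lower, namely Mycl, Mxd3, Mxd4, Mxi1 and Mnt, beside 23.9% and 25.5% of all genes. Mxi1 fell by 0.92 on the log2 scale, Mycl by 0.80, Mnt by 0.56, Mxd4 by 0.52 and Mxd3 by 0.39, while Max rose by 0.21 and Mlx by 0.25. Myc was higher by 0.17 at an adjusted p of 0.139 in edgeR, with no overlap between the groups, and without sorafenib 48 h replicate 2, whose spread the model shares, its adjusted p was 6.58e-07. Mxd1 did not pass (-0.03, edgeR, adjusted p = 0.812). In sorafenib, 0 members were higher at 7 days than at 48 hours and 5 were lower, Mycn, Mycl, Mxd4, Mxi1 and Mnt, beside 17.5% and 22.3% of all genes. Mycl fell by 1.11 on the log2 scale, Mxd4 by 0.70, Mxi1 by 0.48 and Mnt by 0.22. Without the library with lowered counts, Mxi1 fell by 0.60. Myc did not pass here at 0.22 (edgeR, adjusted p = 0.0674), but without the library with lowered counts it was called at 0.08 (adjusted p = 0.0185).

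Per length, Myc was by far the most abundant member in all 4 groups. Its normalized counts per kilobase of exon were 4836 ± 195 in DMSO and 3287 ± 638 in sorafenib at 48 hours, and 5429 ± 166 and 3819 ± 105 at 7 days. Without replicate 2, the sorafenib value at 48 hours was 3600 ± 117 (n = 3), and that of Mxi1 was 268 ± 20.6 in place of 245 ± 49.6. Max came second in every group, with 517 ± 9.01, 519 ± 16, 597 ± 14.5 and 503 ± 10.7 per kilobase, and Mnt was the third, with 474 ± 35.9, 313 ± 18, 322 ± 17.2 and 269.9 ± 16.1. In DMSO at 48 hours the ranges of Max and Mnt overlapped, as did those of Mxd3 and Mlx and those of Mycl and Mycn, so neighbours in these pairs did not differ beyond their spread. The same held for Mxi1 with Mlx and Mxd3 with Mycn in sorafenib at 48 hours, Mycn with Mxd3 in DMSO at 7 days, and Mxd3 with Mycl in sorafenib at 7 days. With the length of the main transcript in place of all exons, Mxi1 took the place of Mnt at 48 hours and Mxd3 in DMSO at 7 days. Mycn moved most in rank. It was the ninth of 10 in DMSO and the eighth in sorafenib at 48 hours, the sixth in DMSO at 7 days with 182.5 ± 4.89 per kilobase, and the last in sorafenib at 7 days with 23.8 ± 3.08, where it overlapped Mxd1 at 28.3 ± 3.05.

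**Figure D3:**
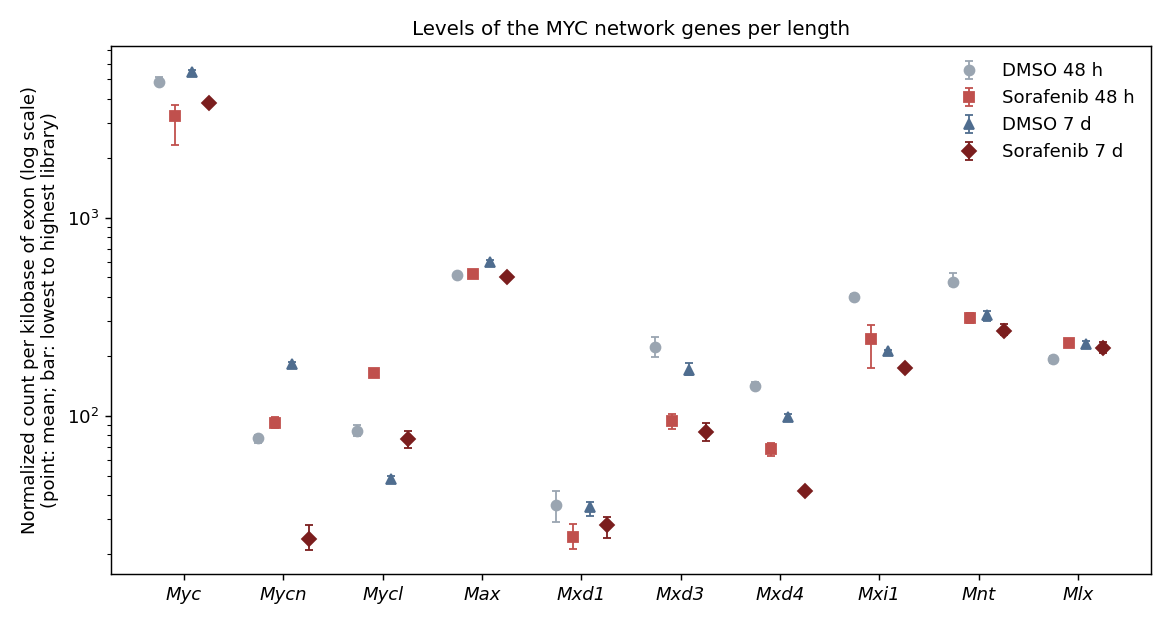
Normalized counts per kilobase of exon (vertical axis, log scale) of the 10 genes, with a symbol for the mean of each group and a bar from the lowest to the highest library. Myc lies above all other members in all 4 groups, and Mycn spans from 182.5 in DMSO at 7 days to 23.8 in sorafenib at 7 days.

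Among the MYC family genes, Myc held 96.8% ± 0.132 of the summed counts per kilobase in DMSO at 48 hours, 92.5% ± 1.89 in sorafenib at 48 hours, 95.9% ± 0.183 in DMSO at 7 days and 97.4% ± 0.206 in sorafenib at 7 days. Without replicate 2 the share in sorafenib at 48 hours was 93.4% ± 0.13. The summed antagonist genes were 0.255 ± 0.00408 times the summed MYC family genes per kilobase in DMSO at 48 hours and 0.215 ± 0.0351 times in sorafenib. The sorafenib libraries gave 0.193, 0.267, 0.203 and 0.195, and the highest of these is the library in which Myc but only 1 of the 5 antagonist genes lies in the lowered stretch. Without it the mean was 0.197 ± 0.00483, below all 4 DMSO libraries. At 7 days the ratio was 0.148 ± 0.00131 in DMSO and 0.153 ± 0.00438 in sorafenib, with overlapping ranges. The ratio was therefore lower at 7 days than at 48 hours in both treatments, and it describes transcripts, not proteins. It also depends on the length used. With the length of the main transcript it was 0.323 ± 0.00587 in DMSO and 0.259 ± 0.04 in sorafenib at 48 hours, replicate 2 included. At 7 days it was then 0.188 ± 0.00158 in DMSO and 0.184 ± 0.0064 in sorafenib, so the order of the 7-day means turned. Myc was 9.35 ± 0.407 times Max per kilobase in DMSO and 6.36 ± 1.37 times in sorafenib at 48 hours, and 9.09 ± 0.0619 and 7.6 ± 0.358 times at 7 days. Without replicate 2 of sorafenib at 48 hours the value was 7.04 ± 0.217 (n = 3). The ratio of Myc to Max depends on the length too, since in DMSO at 48 hours it was 4.88 with the length of the main transcript and 5.93 with no division by length.

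**Figure D4:**
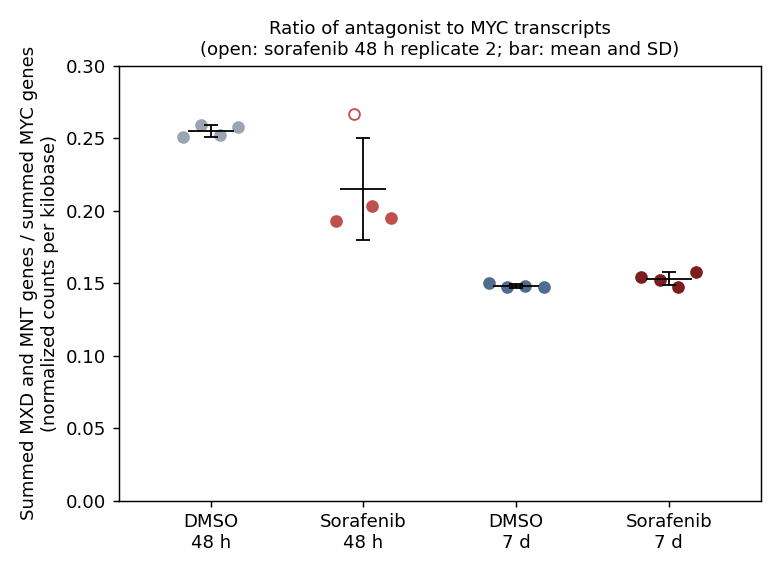
Summed normalized counts per kilobase of Mxd1, Mxd3, Mxd4, Mxi1 and Mnt divided by those of Myc, Mycn and Mycl (vertical axis, from 0) in each library, with mean and SD, and sorafenib 48 h replicate 2 as an open point. DMSO libraries at 48 hours lie between 0.251 and 0.259, and all 7-day libraries lie at or below 0.158.

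The wider network was read from short lists of genes. Of the extended network, Mga, a further MAX partner, was slightly higher in sorafenib (log2 fold change 0.13 at 48 hours and 0.08 at 7 days). Mlxip, which encodes the MLX partner MondoA, was lower (-0.21 and -0.47; edgeR, adjusted p = 8.34e-05 and 1.46e-09). Bmyc, a rodent relative of Myc, was lower at 48 hours by 1.09 on the log2 scale and had -0.09 at 7 days (edgeR, adjusted p = 0.421). Mlxipl, which encodes ChREBP, was near absent, with means of 9.4 normalized counts in DMSO and 2.4 in sorafenib at 48 hours and 3 and 1.5 at 7 days, and Mycs was not tested for lack of counts. In this list 1 gene was higher and 3 lower of 4 tested at 48 hours, beside 26.9% and 27.7% of all genes, and 1 higher and 1 lower at 7 days, beside 28.9% and 27.9%. Without DMSO 7 d replicate 4 the 7-day call of Mga was lost. Txnip and Arrdc4, textbook targets of the MLX pairs that damp glucose uptake, were lower at both times. Txnip fell by 1.57 on the log2 scale at 48 hours and by 0.81 at 7 days, and Arrdc4 fell by 1.68 and by 0.47 (edgeR, adjusted p from 4.07e-16 to 0.000823). Both responses were weaker at 7 days (differences 0.76 and 1.21; edgeR, adjusted p = 2.4e-08 and 9.42e-06).

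Of 6 genes for the corepressors that MXD and MNT proteins recruit, 1 was higher and 4 were lower at each time, beside 27.7% and 27.9% of all genes lower at 48 hours and 7 days. Sin3a, the scaffold of the complex, fell by 0.50 at 48 hours and by 0.69 at 7 days on the log2 scale, and Sap30, a SIN3 subunit, fell by 0.87 and by 0.72. Sin3b fell by 0.17 at 48 hours and was higher by 0.21 at 7 days, whereas Ncor1 was higher at 48 hours by 0.21. The histone deacetylase gene Hdac1 fell at both times (-0.11 and -0.23) and Hdac2 fell at 7 days (-0.27). Of 8 coactivator genes, 2 were higher and 2 lower at 48 hours, and 2 were higher and 3 lower at 7 days, shares near those of all genes (26.9% and 27.7% at 48 hours, 28.9% and 27.9% at 7 days). Trrap, the scaffold that MYC binds to bring histone acetyltransferases, rose by 0.25 and 0.26, while Kat5, one such enzyme, fell by 0.47 and by 0.37 (edgeR, adjusted p from 5.73e-06 to 0.000393). Kat5 lies in the lowered stretch, and without that library its 48-hour value was -0.36 and the coactivator count was 1 higher and 4 lower. Zbtb17, which encodes MIZ1, the partner of MYC at repressed genes, fell by 0.20 and by 0.23 (edgeR, adjusted p = 0.00226 and 0.000411).

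Of 13 genes that control MYC protein turnover, 5 were higher and 3 lower at 48 hours, beside 26.9% and 27.7% of all genes. At 7 days 3 were higher and 4 lower, beside 28.9% and 27.9%. With all libraries these counts lay near the background, but they depend on single libraries. Without DMSO 7 d replicate 4, 2 were higher and 2 lower at 7 days. Without sorafenib 48 h replicate 2, 6 were higher and 3 lower at 48 hours, beside 5795 and 5813 of 20353 genes. At 7 days 3 were then higher and 6 lower, beside 6346 and 6244. Fbxw7, which marks MYC for degradation, rose by 0.43 at 48 hours, and Gsk3b, the kinase that primes MYC for it, rose by 0.40 at 48 hours and by 0.23 at 7 days. Skp2, another ubiquitin ligase subunit, fell by 0.65 and by 0.69, and Usp28, a deubiquitinase, fell by 0.26 at 48 hours. At 7 days Btrc rose by 0.49. Aurka, a mitotic kinase that shields MYCN protein, rose by 0.33 at 48 hours and fell by 0.14 at 7 days, a difference of -0.47 (edgeR, adjusted p = 4.69e-07). Skp2, Gsk3b and Btrc lie in the lowered stretch, and without that library the values of Skp2 and Gsk3b at 48 hours were -0.50 and 0.53. The responses of this list differed between times with 2 higher and 3 lower, beside 15.5% and 21.3% of all genes, and without that library with 1 higher and 8 lower.

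Of 40 genes that MYC is known to induce, the direction was mixed at 48 hours and mostly downward at 7 days. At 48 hours 16 were higher, 13 lower and 11 not called, beside 26.9% and 27.7% of all genes, with a median log2 fold change of 0.01, beside -0.05 for all genes. At 7 days 4 were higher, 32 lower and 4 not called, beside 28.9% and 27.9%, with a median of -0.26, beside 0.02 for all genes. Without sorafenib 48 h replicate 2 the counts were 20 higher and 14 lower at 48 hours. The response of 33 of the 40 was lower at 7 days than at 48 hours and that of 1 was higher, beside 21.3% and 15.5% of all genes. In DMSO alone, 33 of the 40 were higher at 7 days than at 48 hours and 3 were lower, beside 23.9% and 25.5%. The median change of the 40 in DMSO was 0.40, beside -0.01 for all genes. These 7-day DMSO libraries are the controls of the 7-day drug comparison. In sorafenib alone, 14 of the 40 were higher at 7 days than at 48 hours and 10 were lower, beside 17.5% and 22.3% of all genes. Their median change in sorafenib was 0.0003, beside 0.01 for all genes. Without sorafenib 48 h replicate 2, 16 were higher and 10 lower over time in sorafenib.

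Ccnd2, which encodes cyclin D2, rose most, from 13097 ± 451 to 36190.3 ± 1300 normalized counts at 48 hours and from 13007 ± 249 to 31694 ± 1090 at 7 days (log2 fold changes 1.47 and 1.28; edgeR, adjusted p = 4.24e-18 and 2.59e-17). Odc1, the first enzyme of polyamine synthesis, rose by 1.01 on the log2 scale at 48 hours, and Tcof1, a factor of ribosomal RNA transcription, by 0.25 at 7 days. Ldha, which makes lactate, fell by 1.10 at 48 hours, from 41155 ± 673 to 19209.7 ± 435, and rose by 0.08 at 7 days, from 19555 ± 667 to 20653 ± 553, with a difference between times of 1.18 (edgeR, adjusted p = 2.65e-14). The DNA repair genes Apex1 and Ung gave the largest falls at 7 days, by 1.06 and 1.03, and Apex1 fell by 0.73 at 48 hours.

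Of 8 genes that MYC is known to repress, 3 were higher and 4 lower at 48 hours, beside 26.9% and 27.7% of all genes. At 7 days 4 were higher and 4 lower, beside 28.9% and 27.9%, and the changes were large both ways. Gadd45a, a stress response gene, rose by 3.66 and 3.40 on the log2 scale, from 144 ± 16.9 to 1825 ± 172 at 48 hours and from 172 ± 9.76 to 1808 ± 30.1 at 7 days. Cdkn1a, which encodes the cell cycle inhibitor p21, rose by 1.86 and 2.26, and Cdkn2b, which encodes p15, by 1.28 and 0.30. The growth arrest gene Gas1 fell by 2.06 and by 4.21, and the differentiation gene Ndrg2 fell by 2.73 and by 2.50. Cdkn1c, which encodes the inhibitor p57, was lower too, with log2 fold changes of -1.99 and -2.75. Ndrg1 fell by 0.81 at 48 hours and rose by 1.69 at 7 days, and its responses differed by 2.49 (edgeR, adjusted p = 9.06e-11). Ndrg1 and Cdkn1a lie in the stretch lowered in sorafenib 48 h replicate 2. Without that library their 48-hour values were -0.68 and 2.01, and the responses of Ndrg1 differed by 2.37. Cdkn1b, which encodes p27, had -0.01 at 48 hours and fell by 0.12 at 7 days. All calls of this list were made with edgeR, with adjusted p from 2.62e-20 to 0.00737.

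**Figure D5:**
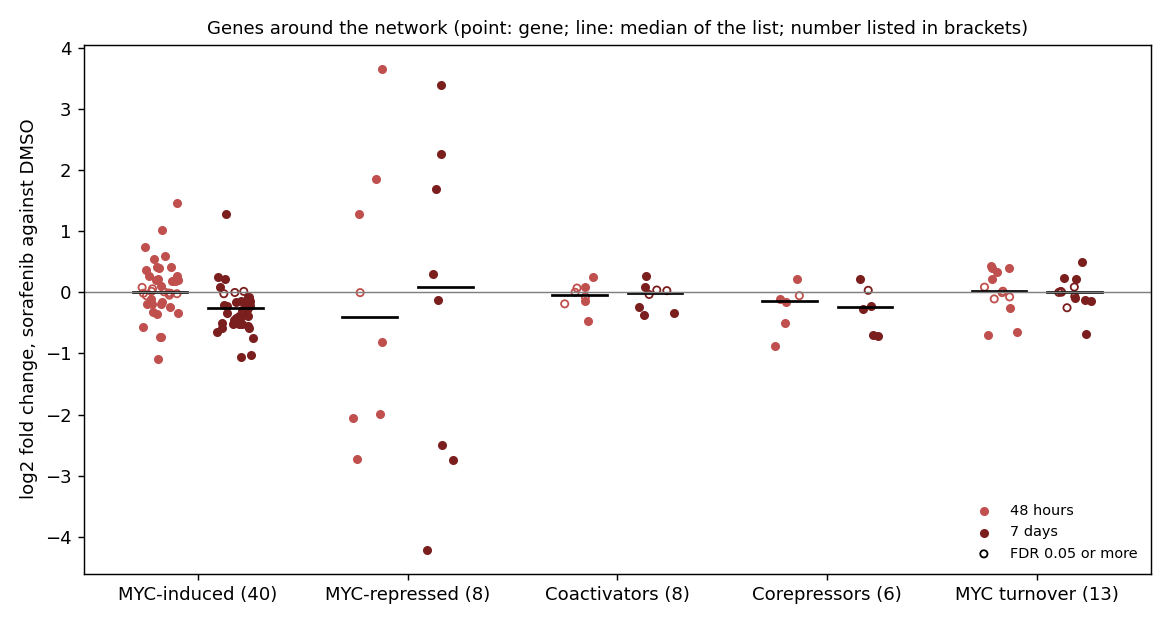
Log2 fold change of sorafenib against DMSO (vertical axis) for each gene of 5 lists around the network at 48 hours and 7 days, with a line for the list's median and open points for a false discovery rate of 0.05 or more. The 40 genes that MYC induces lie on both sides of 0 at 48 hours and mostly below 0 at 7 days, and the 8 genes that it represses spread from -4.21 to 3.40 at 7 days.

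The genes whose pattern was most like that of Myc were sought among 10645 genes that averaged 100 normalized counts or more. Over 15 libraries, leaving out the one with lowered counts, they were Fasn (Pearson r 0.987), Gstm1 (0.986), Tle4 (0.985), Ppp6r1 (0.983) and Zcchc14 (0.982). Fasn, the fatty acid synthase gene, had log2 fold changes of -0.68 and -0.69 at the 2 times, and Gstm1, a glutathione transferase gene, had -0.77 and -1.02. The libraries fall into 4 groups and share their normalization, so these values describe the pattern of group means and carry no test. Over all 16 libraries the first 5 were Apex2, Rpl7l1, Capn15, Mark2 and Smarcd1, with 0 in common. These lie on chromosomes X, 17, 17, 19 and 15, like Myc in the stretch lowered in sorafenib 48 h replicate 2. Its part in their likeness was not tested.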

How the data were processed

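Messenger RNA of 16 libraries (Illumina Stranded mRNA Prep) was measured as counts. The authors deposited 1 table of raw read counts per gene for all samples, made per the labels and the submitters' processing notes with STAR 2.7.1a on GRCm39 and featureCounts 2.0.6; DESeq2 1.40.2 is named there too. The annotation and strand setting are not given in the sources used here. From the deposited counts, genes with at least 10 counts in total were fitted over all 16 libraries with edgeR 4.0.16 (R 4.3.3; TMM, quasi-likelihood test, 4 groups), with Benjamini-Hochberg adjustment over 20444 genes and a threshold of 0.05. Normalized counts are counts divided by effective library size. Levels per kilobase used exon lengths of GENCODE M39, whose gene names matched 32249 of 40840 rows at a single position. Groups came from the labels. Library pairs of 1 group differed by 1.58 to 71.6 chi-square units per gene, so no library's counts were a copy of another's. These values cannot tell whether 2 libraries were made from the same culture or RNA. The widest of these pairs held DMSO 7 d replicate 4, and a few genes made up most of their difference.

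The members and lists were chosen with earlier results of these data known. All 10 members and every gene of lists of up to 8 are named by rule, and of the longer lists the 2 largest rises and falls per drug comparison among called genes that averaged at least 100 normalized counts. Most-like genes were ranked by Pearson correlation of log2 normalized counts (pseudocount 1). Alternatives were DESeq2 1.42.0 and its size factors, other filters, a replicate block, an offset for the lowered stretch, the 8 libraries of a time point, and each library left out. The same replicate numbers occur in every group, but deviations of same-numbered libraries correlated between -0.05 and 0.13, so the numbers were not taken as pairs. The fit was tested on simulated data. No sample column was left out.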

Additional observations from a re-analysis of the deposited data

Results flagged for a closer look

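In 2 of 40 sets of 4 libraries (10 members in 4 groups), 1 library lay far from the others by Dixon's ratio, where chance gives about 1 in 20. Myc in sorafenib 48 h replicate 2 had a ratio of 0.836, and this library has lowered counts over the stretch that holds Myc. Mnt in DMSO 48 h replicate 4 had a ratio of 0.949, with 2807.5 normalized counts beside 2417 to 2437 in the other 3.

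The drug response differed between 7 days and 48 hours, by a test of the difference itself, in 7 members. The differences on the log2 scale were -3.16 for Mycn, -0.31 for Mycl, -0.25 for Max, -0.18 for Mxd4, 0.44 for Mxi1, 0.34 for Mnt and -0.33 for Mlx. The value of Mxd4 is the weakest of these, with an adjusted p of 0.0456 in edgeR.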

How the results depend on the processing

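The number of members called in each of the 5 comparisons stayed within 1.5 times the reported one in all settings run. Max at 48 hours had no stable sign, at -0.0112 with DESeq2 size factors, -0.0129 with DESeq2, -0.035 with at least 10 counts in every library, -0.0206 with the offset, -0.0201 in the 8 libraries of the time point alone, and -0.0282 to 0.00532 with single libraries left out. Max in sorafenib at 7 days against 48 hours was 0.0074 under the strict filter. The difference between the drug responses of Myc was -0.0823 with the offset and -0.0827 to 0.144 with single libraries left out, and Mxd1 in DMSO over time was -0.12 to 0.0385. The ratio of Myc to Max in DMSO at 48 hours, 9.35 per kilobase, was 5.93 without division by length and 4.88 with the length of the main transcript only, an alternative chosen after seeing the data. Of the 5 genes most like Myc, 0 were kept over all 16 libraries. Single libraries decided calls of Mxd1 at 7 days, of Mxd4 and Mxd3 between times (Mxd3 passed at 0.29 without DMSO 48 h replicate 3, adjusted p = 0.049 in edgeR), and of Myc and Mxd1 over time.

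A replicate block, though the numbers did not pair the samples, changed 2 calls of the members in the 5 comparisons. With the block the Mxd4 difference between times had an adjusted p of 0.052 in edgeR, and Myc in sorafenib over time passed at 0.23. Over all genes the block fit called 10644 genes at 48 hours and 11027 at 7 days. Depth limits Mxd1 and Mycn most, with raw counts down to 118 and 90 in a library.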
